A study of Mus musculus with 8 samples.

Results

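Cerebellar granule cells are the small excitatory neurons that pack the inner layer of the cerebellar cortex and send parallel fibres to Purkinje cells. They are the most numerous neurons of the brain, and they are recognised by a receptor subunit, secreted synapse proteins and transcription factors that mark their lineage from the rhombic lip onward. The 8 genes described here were taken by exact gene symbol: Gabra6, Cbln1, Cbln3, Fat2, Neurod1, Zic1, Zic2 and Pax6. All 8 were found among the 25815 genes of the count table, and all 8 were among the 16810 genes that passed the filter on low counts.

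Poly(A)-selected RNA of total brain from 8 mice on a C57BL/6NCrl background was sequenced at postnatal day 50. The mutant group, D50A, held 5 libraries from Cstf2D50A mice. In these mice aspartate is replaced by alanine in the RNA-binding subunit of the cleavage stimulation factor. The group WT held 3 libraries from wild-type mice. The colony shared by both groups had been backcrossed for 4 generations and then bred within itself, and no mouse was treated. The labels are silent on sex, litter and batch, and libraries are numbered in accession order only.

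Library depth ran from 13675945 to 24802272 counts. D50A 3 stood apart: mitochondrially encoded genes took up 11.9% of it, while they took up 4.08% to 5.14% of each of the other 7 libraries. Over 12438 genes its deviation from the WT mean had a Spearman rho of -0.56 with transcript length, and D50A 1 had a rho of 0.66 with GC content; genes are not independent replicates, so both describe the libraries. The tissue label is total brain, which includes the cerebellum, yet Gabra6 was at or near 0 in all 3 WT libraries and in D50A 1. In bulk RNA, fewer granule cells in a sample and less RNA per granule cell cannot be told apart.

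As background, the members fall into 3 roles. Gabra6 encodes the alpha6 subunit of the GABA-A receptor, which in the cerebellum carries the slow and tonic inhibition of granule cells. Cbln1 and Cbln3 encode cerebellins, secreted proteins that bind presynaptic neurexins at the synapses of parallel fibres with Purkinje cells, and Fat2 encodes a giant cadherin of parallel fibres. Neurod1, Zic1, Zic2 and Pax6 encode transcription factors of granule cell progenitors and neurons. These 4, and Cbln1, are also known to be expressed outside the cerebellum, for example in olfactory bulb, thalamus or dentate gyrus.

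Start site sequences are shown for Gabra6, Cbln3 and Fat2 because these members were near 0 outside D50A 2 to 5. Windows of 300 bases, from 250 before to 50 after a RefSeq start site in GRCm38.p6 (the assembly called mm10), were found for 6 of the 8 members. Each is printed from 5′ to 3′ on the gene's strand, with the minus strand at chr11:42321023-42321322, chr14:55884207-55884506 and chr11:55312208-55312507. Capitals mark the matches found. The Fat2 window lies at a start site inside the GENCODE gene, whose end is at 55336564. The Cbln3 start site also lies inside its GENCODE gene, whose end is at 55884392.
Gabra6: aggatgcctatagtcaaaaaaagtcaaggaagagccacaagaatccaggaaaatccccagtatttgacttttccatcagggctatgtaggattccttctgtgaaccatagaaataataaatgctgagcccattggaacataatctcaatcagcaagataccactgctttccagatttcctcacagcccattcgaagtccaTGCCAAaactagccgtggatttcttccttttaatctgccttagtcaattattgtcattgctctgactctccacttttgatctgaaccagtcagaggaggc
Cbln3: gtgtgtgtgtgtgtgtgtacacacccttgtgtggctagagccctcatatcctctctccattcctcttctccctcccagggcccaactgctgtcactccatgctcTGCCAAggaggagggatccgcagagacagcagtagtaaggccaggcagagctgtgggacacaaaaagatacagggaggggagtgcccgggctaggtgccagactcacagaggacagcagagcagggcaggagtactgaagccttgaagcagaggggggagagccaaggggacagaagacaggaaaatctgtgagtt
Fat2: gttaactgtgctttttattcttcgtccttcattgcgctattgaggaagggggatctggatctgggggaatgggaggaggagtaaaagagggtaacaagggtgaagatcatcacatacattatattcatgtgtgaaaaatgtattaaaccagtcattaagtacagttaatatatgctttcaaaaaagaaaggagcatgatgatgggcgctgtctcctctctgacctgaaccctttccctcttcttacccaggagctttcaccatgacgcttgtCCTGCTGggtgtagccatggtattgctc
Motifs searched on both strands were the E-box cores CAGATG and CAGCTG, the ZIC core CAGCAGG, the NFI core TTGGCA and TATAAA. The Gabra6 and Cbln3 windows each held 1 NFI core before the start site, read on the opposite strand as TGCCAA. The Fat2 window held 1 ZIC core, read as CCTGCTG, which lies 22 bases after the start site. No pair of matches overlapped. Of all 32851 windows in the table, 14.1% held an NFI core and 10.5% a ZIC core, so each match is a common one. The shares for the other motifs were 17.2% for CAGATG, 16.3% for CAGCTG and 13.6% for TATAAA. The windows of Neurod1, Zic1 and Pax6 held none of these letters.

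Gabra6 counts were 0, 1049, 1168, 2037 and 2092 in D50A 1 to 5. WT 1 to 3 held 0, 6 and 2 Gabra6 counts. Gabra6 (ENSMUSG00000020428) is a protein-coding gene of the minus strand on chromosome 11, from 42306437 to 42321072 in mm10. In CPM, the TMM-scaled count rate used throughout, D50A 2 reached 53.2, D50A 3 reached 108, D50A 4 reached 108 and D50A 5 reached 103. The 2 libraries without a Gabra6 read allow up to 0.117 CPM in D50A 1 and 0.144 CPM in WT 1, the level of 3 counts. The 8 counts summed over WT gave 0.142 CPM without scaling, with an exact 95% Poisson interval of 0.0614 to 0.28 CPM that covers counting error only. D50A 2 to 5 thus lay at 378 to 767 times the WT mean, a ratio that rests on those 8 counts, while D50A 1 lay within the WT range, so the genotypes overlapped.

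Cbln3 (ENSMUSG00000040380, chromosome 14, minus strand, 55878913 to 55884392) followed the same split. Its counts were 16, 2977, 1271, 4520 and 4826 in D50A 1 to 5, and 17, 17 and 23 in WT 1 to 3. In CPM these were 0.623, 151, 118, 239 and 239 in D50A, against 0.818, 0.861 and 1.37 in WT. D50A 1 was the lowest of all 8 libraries, and D50A 2 to 5 stood at 116 to 236 times the WT mean.

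Cbln1 (ENSMUSG00000031654, chromosome 8, minus strand, 87468405 to 87472609) encodes the partner with which cerebellin 3 is secreted, and it was not near 0 anywhere. D50A 1 to 5 held 728, 2918, 1987, 3591 and 3697 Cbln1 counts, and the WT libraries held 478, 507 and 408. In CPM it was at 28.3, 148, 184, 190 and 183 in D50A, and at 23, 25.7 and 24.2 in WT. No D50A value fell as low as the highest WT value, but D50A 1 stood at only 1.17 times the WT mean, against 6.09 to 7.83 times in D50A 2 to 5.

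Fat2 (ENSMUSG00000055333, chromosome 11, minus strand, 55250609 to 55336564) was counted 38, 2022, 265, 2079 and 2332 times in D50A 1 to 5, while WT 1 to 3 gave 19, 22 and 14. In CPM it was at 1.48, 103, 24.5, 110 and 115 in D50A, against 0.914, 1.11 and 0.832 in WT. No WT library reached a D50A library, although D50A 1 stood at 1.55 times the WT mean and D50A 3 at 25.7 times, against 108 to 121 times in the other 3. Fat2 has the longest transcript of the 8 members, 14528 bases. The rho with transcript length was most negative in D50A 3, at -0.56, and was -0.31 in D50A 4, where Fat2 was at 110 CPM, and -0.26 to 0.1 in the other 6 libraries. The part of transcript length in the low Fat2 level of D50A 3 was not tested.

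**Figure D1:**
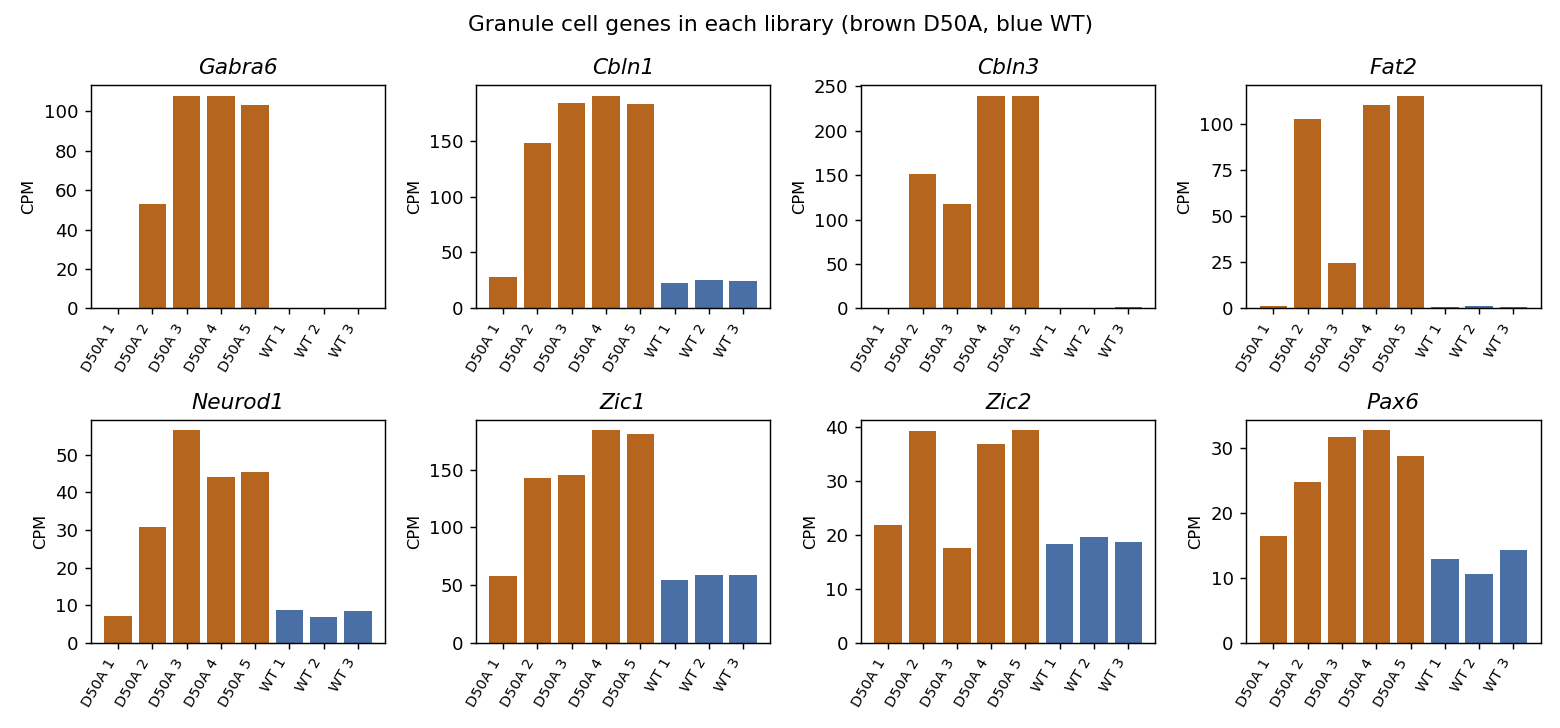
Bars give the TMM-scaled CPM of each member in each of the 8 libraries, D50A in brown and WT in blue, on linear axes that start at 0 and differ between panels. D50A 2 to 5 are high for Gabra6, Cbln1 and Cbln3 and D50A 1 is near WT; Fat2 and Zic2 are low in D50A 3, at 24.5 and 17.7 CPM.

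Among the transcription factors, Neurod1 (ENSMUSG00000034701, chromosome 2, minus strand, 79452521 to 79456751), a helix-loop-helix factor of neuronal differentiation, had 188, 609, 610, 833 and 916 counts in D50A 1 to 5. WT 1 to 3 had 185, 137 and 144 counts of it. Its level was 7.32, 30.9, 56.4, 44.1 and 45.3 CPM in D50A, against 8.9, 6.94 and 8.55 CPM in WT. D50A 1 lay within the WT range and D50A 3 was the highest library. The gene shares 201 exon bases with Cerkl on the same strand and 154 with the lincRNA gene Gm26755 on the other, so reads there cannot be assigned with certainty.

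Zic1 (ENSMUSG00000032368, chromosome 9, minus strand, 91358058 to 91365810), a zinc finger factor of dorsal neural progenitors, was well expressed in all libraries. It was at 57.9, 143, 145, 184 and 180 CPM in D50A 1 to 5, and at 54.4, 59.1 and 59.1 CPM in WT. D50A 1 lay between the WT libraries, and D50A 2 to 5 lay at 2.48 to 3.2 times the WT mean. Zic1 shares 60 exon bases with Zic4 on the opposite strand, and whether the counting used strand is not stated in the labels.

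Zic2 (ENSMUSG00000061524, chromosome 14, plus strand, 122475435 to 122479852), a close relative of Zic1, was at 21.9, 39.1, 17.7, 36.9 and 39.4 CPM in D50A 1 to 5. In WT it was at 18.3, 19.6 and 18.7 CPM. Here D50A 3 departed from D50A 2, 4 and 5 and was the lowest of all 8 libraries, at 191 counts. The longest Zic2 transcript is 2440 bases with 59.9% GC, the highest GC content among the members. The rho with GC content was -0.29 in D50A 3 and -0.39 in D50A 5, where Zic2 was highest. The part of GC content in the low Zic2 level of D50A 3 was not tested.

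Pax6 (ENSMUSG00000027168, chromosome 2, plus strand, 105668900 to 105697364), a paired-box factor that granule neurons keep into adulthood, was counted 424, 489, 343, 617 and 581 times in D50A 1 to 5, while WT 1 to 3 gave 269, 209 and 241. In CPM it was at 16.5, 24.8, 31.7, 32.7 and 28.7 in D50A, against 12.9, 10.6 and 14.3 in WT. All D50A libraries lay above all WT libraries, D50A 1 by the least. The antisense gene Pax6os1 lies over Pax6 with 0 shared exon bases.

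Per length of merged exons, as RPKM (CPM divided by kilobases), the order of the members in D50A 2 to 5 differed from that in WT and D50A 1. In WT the order was Zic1 at 10.1 ± 0.479 RPKM (SD, n = 3), Cbln1 at 8 ± 0.44, Zic2 at 6.55 ± 0.228, Neurod1 at 2.98 ± 0.384, Pax6 at 1.08 ± 0.162, Cbln3 at 0.209 ± 0.0627, Fat2 at 0.0656 ± 0.00999 and Gabra6 at 0.0566 ± 0.0615. Each gene stood above the next in all 3 WT libraries, except Fat2 and Gabra6, which swapped in 1 of 3. D50A 1 had the order of the WT means, from Zic1 at 10.2 RPKM and Cbln1 at 9.33 to Fat2 at 0.102 and Gabra6 at 0. By the mean of all 5 D50A libraries, Cbln1 led at 48.3 ± 22.4 RPKM (SD, n = 5), above Cbln3 at 30.7 ± 20.3, Gabra6 at 29.9 ± 19.1 and Zic1 at 24.9 ± 8.92. Neurod1 at 13.5 ± 6.89 RPKM, Zic2 at 10.8 ± 3.61, Fat2 at 4.87 ± 3.69 and Pax6 at 2.3 ± 0.562 followed. The SDs of D50A span libraries as far apart as D50A 1, near WT for every member, and D50A 4. Cbln3 and Gabra6 swapped in 1 of 5 D50A libraries, and Gabra6 and Zic1, Neurod1 and Zic2, and Fat2 and Pax6 each swapped in 2 of 5, so those neighbours do not differ beyond their spread.

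The members also differed in their proportions within the 4 libraries that held many Gabra6 reads. Per unit of Gabra6 RPKM, Cbln1 stood at 2.28 in D50A 2 and at 1.39, 1.44 and 1.45 in D50A 3, 4 and 5. Zic1 stood at 1.17 in D50A 2 and at 0.588, 0.745 and 0.762 in D50A 3 to 5. For all 7 other members this ratio was highest in D50A 2, the library with the lowest Gabra6 level of the 4. For Cbln1, Cbln3, Fat2, Zic1 and Zic2 it was lowest in D50A 3: Fat2 stood at 0.0389 there, beside 0.33, 0.175 and 0.191 in D50A 2, 4 and 5, and Zic2 at 0.141, beside 0.636, 0.295 and 0.329. D50A 4 and D50A 5 gave similar ratios, for example 1.14 and 1.18 for Cbln3 and 0.373 and 0.399 for Neurod1. The proportions among the granule cell genes thus differed between libraries, most for Fat2 and Zic2.

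The comparison of D50A with WT asked whether the allele goes with a change in these genes. All 8 log2 fold changes were positive, but edgeR's quasi-likelihood test over all genes called 0 of 8 members, where it called 0% of the 16810 genes in either direction. At an unadjusted p under 0.05 there were 275 genes higher and 145 lower, and all 8 members were among the 275. The log2 fold change was 8.99 (SE 2.16) for Gabra6, a size that rests on the 8 counts that WT held in all. For Gabra6 it was 8.38 without WT 1 and 10.26 without WT 2. With all libraries the log2 fold change was 7.2 (SE 1.64) for Cbln3, 6.2 (SE 1.38) for Fat2 and 2.59 (SE 0.57) for Cbln1. Among the factors it was 2.18 (SE 0.58) for Neurod1, 1.3 (SE 0.35) for Zic1, 1.09 (SE 0.24) for Pax6 and 0.72 (SE 0.29) for Zic2. The edgeR adjusted p was 0.837 for each of the 8. The median over the members was 2.38, beside -0.01 over all genes tested.

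Separation of the genotypes was partial. For 3 of 8 members, Cbln1, Fat2 and Pax6, the lowest D50A library stood above the highest WT library, where 3.22% of all tested genes showed this; 0 of 8 showed the reverse, where 4.24% of all genes did. Taken library by library, 4 of 8 members lay above all WT libraries in D50A 1, where 31.8% of all genes did. In D50A 2, 4 and 5 all 8 lay above, where 24.4%, 28.9% and 30.2% of all genes did. In D50A 3 it was 7 of 8, with Zic2 below all WT, where 43.4% of all genes lay above.

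The count of members called turned on the tool and on D50A 1. DESeq2 called 6 of 8 higher (0.168% of 18499 genes) and 0 lower (0.0324%), leaving out Zic1 and Zic2. limma-voom with sample quality weights also called 6 higher (1.87% of 16810 genes) and 0 lower (1.2%), leaving out Gabra6 and Cbln3. Without D50A 1, edgeR called 6 of 8 higher (0.156% of 16685 genes), leaving out Pax6 and Zic2. With D50A 3 left out as well, an alternative chosen after seeing the data, all 8 were called higher (3.36% of 16591 genes) and 0 lower (3.06%). Leaving out D50A 1 removes the D50A library in which the members were closest to WT, so it favours these calls, and cerebellar content and genotype cannot be told apart among the remaining libraries.

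**Figure D2:**
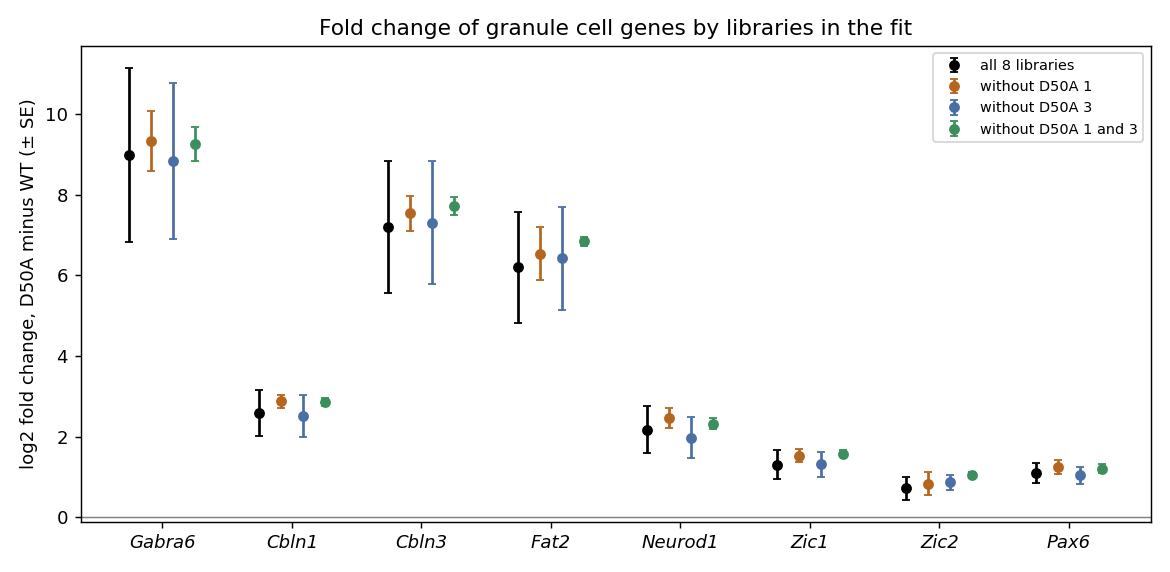
Points give the edgeR log2 fold change of each member, D50A minus WT, and bars its SE, with all 8 libraries and without D50A 1, D50A 3 or both. For Cbln1 the value is 2.59 with all libraries and 2.88 without D50A 1, and its SE is 0.57 with all libraries and 0.16 without D50A 1.

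Each member was then set beside the other genes of its family. Among the relatives of Gabra6, Gabra2, Gabra3, Gabra4 and Gabra5 had log2 fold changes of -0.19, 0.06, 0.27 and 0.19, and none passed (edgeR adjusted p from 0.837 to 0.901). The 3 positive values rested on D50A 3, where Gabra4 was at 321 CPM beside 104 to 141 CPM in the other 7 libraries. Without D50A 3, Gabra3, Gabra4 and Gabra5 had log2 fold changes of -0.1, -0.12 and -0.15. Cbln3 made up 23.4% to 38.9% of the cerebellin RPKM in D50A 2 to 5, 0.466% in D50A 1 and 0.711% to 1.16% in WT. Cbln2 and Cbln4, cerebellins also expressed outside the cerebellum, had log2 fold changes of 0.12 (SE 0.15) and 0.06 (SE 0.15).

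Fat2 made up 34.8% to 47.2% of the Fat cadherin RPKM in D50A 2 to 5, 0.938% in D50A 1 and 0.415% to 0.618% in WT. Its relatives Fat1 and Fat3, both also giant cadherins, were at 8.97 and 24.2 CPM in D50A 3 and at 72.6 to 151 CPM in the other 7 libraries, so the low value of D50A 3 was not particular to Fat2. Neurod1 made up 19.4% to 25.1% of the Neurod RPKM in D50A 2 to 5, 5.48% in D50A 1 and 4.85% to 6.32% in WT. Neurod2 and Neurod6, factors of excitatory neurons, had log2 fold changes of -0.12 and 0.29, and of 0.02 and -0.06 without D50A 3. Neurod6 was at 134 CPM in D50A 3 and at 52.6 to 60.3 CPM in the other 7 libraries. Zic4 and Zic5, the divergent neighbours of Zic1 and Zic2, had log2 fold changes of 0.73 (SE 0.2) and 0.86 (SE 0.33). Pax2, a relative of Pax6 that marks cerebellar inhibitory interneuron precursors, was counted 16, 32, 3, 21 and 21 times in D50A 1 to 5, while WT gave 0, 1 and 1. No family relative passed by edgeR, and 4 of 19 tested were higher at an unadjusted p under 0.05, where 275 of all 16810 genes were. DESeq2 called 1 higher, where it called 0.168% of all genes, and limma-voom 3, where it called 1.87%. Of the 19, 12 had a positive log2 fold change, with a median of 0.12 that was -0.02 without D50A 3.

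**Figure D3:**
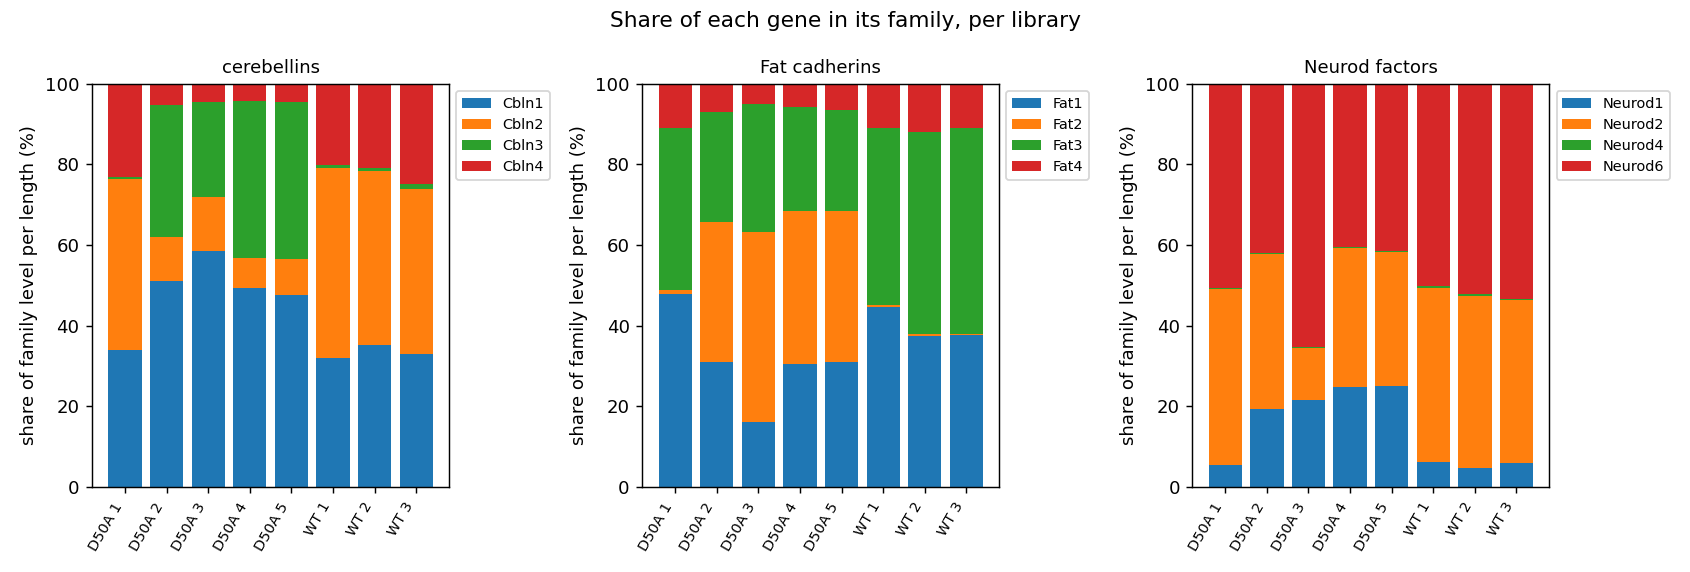
Stacked bars give each gene's share, in percent, of the summed RPKM of its family in each library, for cerebellins, Fat cadherins and Neurod factors. Cbln3 and Fat2 take up between 23.4% and 47.2% in D50A 2 to 5 and at most 1.16% in D50A 1 and WT, and Neurod1 takes up 19.4% to 25.1% against 4.85% to 6.32%.

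Genes for proteins that the members work with showed smaller differences. Gabrd, the delta subunit gene that pairs with Gabra6 in extrasynaptic receptors, was at 66.2, 81.8, 123, 84.9 and 78.2 CPM in D50A 1 to 5, beside 64.7, 67 and 54.6 CPM in WT. D50A 3 was its highest library, and D50A 1 lay within the WT range. Its log2 fold change of 0.48 (SE 0.21) did not pass by edgeR (adjusted p = 0.837) or DESeq2 (adjusted p = 0.891), and passed by limma-voom (adjusted p = 0.0237) and by edgeR without D50A 1 and D50A 3 (adjusted p = 0.00316). Of the 10 partner and receptor genes, 4 had a positive log2 fold change and the median was -0.15 beside -0.01 over all genes. That median was -0.03 without D50A 1 and -0.05 without D50A 3. None passed by edgeR or DESeq2, and limma-voom called 2 higher, where it called 1.87% of all genes. None of the 10 had an unadjusted edgeR p under 0.05, where 275 of all 16810 genes were higher and 145 lower.

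Of 24 further granule cell genes, 23 were tested. edgeR called 0 of the 23 in either direction, and 9 were higher at an unadjusted p under 0.05, where 275 of all 16810 genes were. Of the 23, 17 had a positive log2 fold change, and the median was 0.48 beside -0.01 over all genes. DESeq2 called 2 higher (0.168% of all genes), limma-voom 12 (1.87%), and edgeR without D50A 1 called 3 (0.156%). En2, a homeobox gene of the midbrain and hindbrain, had the smallest p, at 3.15, 20, 10.5, 21.8 and 23.1 CPM in D50A 1 to 5 and 3.13, 2.58 and 2.02 CPM in WT. Mab21l1, a developmental gene, was at 4.32, 9.02, 6.66, 9.38 and 11.2 CPM against 3.8, 4 and 2.55 CPM. Both repeat the order in which D50A 1 is the D50A library nearest WT. The list mean lay 0.68, 0.78 and 0.79 log2 CPM above the WT mean in D50A 2, 4 and 5, and 0.04 and 0 in D50A 1 and D50A 3. For the 8 members the same difference was 3.69, 3.57, 4.11 and 4.09 in D50A 2 to 5 and -0.04 in D50A 1.

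The members were not alone among cerebellar markers in separating these libraries. Purkinje cell genes (12 tested) had a list mean 1.16 to 1.44 log2 CPM above WT in D50A 2 to 5 and -0.16 in D50A 1. Ppp1r17, a phosphatase regulator gene of Purkinje cells, was at 1.32, 17.5, 46.9, 24.9 and 28.1 CPM in D50A 1 to 5 and at 0.866, 1.22 and 1.43 CPM in WT. Slc1a6, their glutamate transporter gene, had 10 CPM in D50A 1, 16.3 to 20.6 CPM in D50A 2 to 5 and 7.13 to 8.96 CPM in WT. Bergmann glia genes (6 tested) lay 0.54 to 1.21 above WT in D50A 2 to 5 and 0.11 in D50A 1. A2m was at 6.39 CPM in D50A 1, 11.9 to 13.9 CPM in D50A 2 to 5 and 4.86 to 5.58 CPM in WT, and Gdf10, a growth factor gene of Bergmann glia, at 8.45, 14, 9.16, 15.2 and 19.5 CPM against 6.12 to 6.69 CPM. edgeR called 0 genes of these lists, with 5 Purkinje and 2 Bergmann glia genes higher at an unadjusted p under 0.05. Over all 16810 genes, 275 were higher at that level. DESeq2 called 4 Purkinje and 1 Bergmann glia genes higher (0.168% of all genes), and limma-voom called 7 and 4 (1.87%).

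The remaining lists gave other orders of the libraries, except forebrain genes. By their list mean, forebrain genes also set D50A 2 to 5 apart from D50A 1 and WT, but as lower. Cerebellar interneuron genes (8 tested) had list means that differed from WT by 0.37, 0.59, -0.8, 0.44 and 0.49 in D50A 1 to 5. Only 4 of the 8 had a positive log2 fold change, with a median of 0.03 that ranged from -0.02 to 0.06 with single libraries left out. Pax2, nearly absent from WT, had the largest at 4.54, while Sorcs3 was at -0.57 and Grm2 at -0.4. Tfap2b was at 4.28, 6.08, 2.96, 6.89 and 7.91 CPM against 2.67 to 3.95 CPM in WT. Unipolar brush cell genes (4 tested) lay 0.19 to 0.67 above WT in all 5 D50A libraries. In that list Eomes, also an olfactory bulb gene, was highest in D50A 1, at 6.77 CPM, and Lmx1a had a log2 fold change of 0.56 (SE 0.36). Dentate gyrus granule cell genes (6 tested), which mark another granule cell type, lay between -0.47 and 0.06 of WT. C1ql2 was at 9.84 to 12 CPM over the D50A libraries, all below the 12.9 to 13.7 CPM of WT. Calb1, listed for both dentate and Purkinje cells, was at 115 CPM in D50A 1, 193 to 428 CPM in D50A 2 to 5 and 130 to 140 CPM in WT. Forebrain genes (10 tested) lay at -0.21, -0.75, -0.3 and -0.29 in D50A 2 to 5 and -0.03 in D50A 1. Of these 10 genes, 3 had a positive log2 fold change. In D50A 2, 4 and 5, 8, 9 and 9 of 10 lay below all WT libraries, where 27.3%, 35.2% and 33.5% of all tested genes did. There 0 of 10 lay above, where 24.4%, 28.9% and 30.2% of all genes did. In D50A 1, 3 of 10 lay below and 1 above, where 32.4% and 31.8% did. In D50A 3, 3 of 10 lay above all WT libraries and 7 below, where 43.4% and 49% of all tested genes did. Their summed CPM was 886 in D50A 3 and 603 to 626 in WT. Emx1, a cortical homeobox gene, was at 14.2 CPM in D50A 1, 7.03 to 12 CPM in D50A 2 to 5 and 13.4 to 15.7 CPM in WT, and Drd2 had a log2 fold change of -0.38 (SE 0.21). No gene of these lists passed by edgeR, with 2 interneuron genes and 1 unipolar brush cell gene higher and 1 dentate gene lower at an unadjusted p under 0.05. Over all 16810 genes, 275 were higher and 145 lower at that level. DESeq2 called 1 interneuron gene higher, where it called 0.168% of all genes. limma-voom called 2 interneuron genes and 1 dentate gene higher (1.87% of all genes) and 1 dentate and 2 forebrain genes lower (1.2%). The part of tissue content in the values of the 8 members was not tested.

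**Figure D4:**
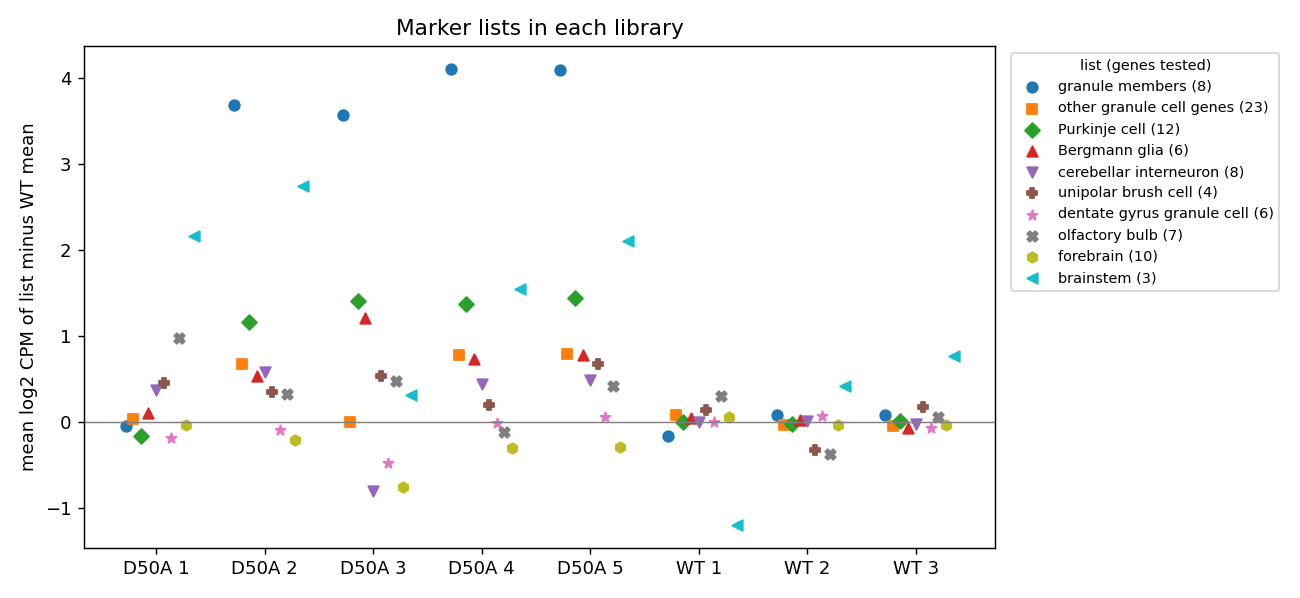
Each point is the mean log2 CPM of a marker list in 1 library minus the mean of the 3 WT libraries, with the number of genes tested in brackets. The 8 members lie 3.57 to 4.11 above WT in D50A 2 to 5 and -0.04 in D50A 1. Purkinje cell genes lie at 1.16 to 1.44 in D50A 2 to 5, and the 3 brainstem genes at 2.17, 2.75, 0.32, 1.55 and 2.11 in D50A 1 to 5 and -1.19 to 0.77 in WT.

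The genes whose profile over the 8 libraries was most like that of a member were found by the root mean square distance between log2 CPM profiles, each centred on its own mean. Nearest to Gabra6 were Cbln3 at a distance of 0.97 log2 units, Crtam at 1.52, Fat2 at 1.81, Cnpy1 at 2.05 and Sycp1 at 2.13. Crtam, an immunoglobulin superfamily gene known from lymphocytes, was at 0.0389 CPM in D50A 1, 6.59, 15.5, 9.75 and 11.1 CPM in D50A 2 to 5, and 0 to 0.253 CPM in WT. Sycp1, known as a synaptonemal complex gene of meiotic cells, had no counts in D50A 1 or WT and 2.08 to 4.53 CPM in D50A 2 to 5. Nearest to Cbln1 was Gm2694 at 0.26, a lincRNA gene that lies across Cbln1 on the opposite strand with 0 shared exon bases. It was at 3.82, 17.1, 24.9, 21.2 and 20.6 CPM in D50A 1 to 5 and 2.97 to 4.62 CPM in WT, and without the strand setting intronic or unannotated reads of the pair cannot be told apart. Neurod1 at 0.29, Pkp3 at 0.3, Lhx1os at 0.36 and Tlx3 at 0.37 followed. Nearest to Pax6 were A2m and Tspan4 at 0.17 each, Sdc1 at 0.18, Chn2 at 0.19 and Fam107b at 0.21. Chn2, a Rac regulator gene on the list of further granule cell genes, was at 32.4, 66.2, 64.8, 81.3 and 79.5 CPM in D50A 1 to 5 and 29.9 to 32.6 CPM in WT.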

How the data were processed

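Poly(A) RNA of total brain was sequenced in 8 libraries, 5 D50A and 3 WT, grouped by the genotype label. The authors deposited raw counts of reads per gene in 1 table, with no normalization. The submitters' processing notes name mm10 as the build and, in no order, the tools HTSeq 0.6.1, STAR 2.5, DESeq2 2 and CASAVA 1.8; annotation release and strandedness are not stated there.

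Counts were tested with edgeR 4.0.16 in R 4.3.3 (filterByExpr, TMM scaling, quasi-likelihood test, Benjamini-Hochberg adjustment over 16810 genes, threshold 0.05), with no covariate. Log2 CPM used a prior count of 2. The SE is the log2 fold change over the square root of F. Each library is 1 mouse, so p-values rest on the spread between mice and their samples. The fit was tested on simulated data in which all D50A libraries carried the same fold change. It therefore does not show how the fit recovers genes for which D50A 1 stays near WT. Alternatives were DESeq2 1.42.0, limma-voom (limma 3.58.1), RLE and upper quartile scaling, no filter, and each library left out. Exon lengths and positions came from GENCODE M21 (25484 identifiers matched), start site windows from RefSeq.

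The members and 11 further lists were chosen with earlier results of these data known. Named genes were the members, their partners and relatives, the 2 smallest p-values of each list, and the 5 genes most like Gabra6, Cbln1 and Pax6; others were named after their values were seen. Some listed genes are not reported here.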

Additional observations from a re-analysis of the deposited data

Results flagged for a closer look

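Each of the 8 members was checked for a library far from the others of D50A, on the CPM and on the log2 CPM scale, and 5 of 16 checks were positive. Chance alone gives about 1 in 20 for independent checks, but each member was checked on both scales and the checks share the same libraries. The members were also chosen with earlier results of these data known, so 5 of 16 cannot be set against that rate. All 5 had D50A 1 as the lowest library. Cbln1 was at 28.3 CPM there and at 148 to 190 CPM in the other D50A libraries. On the log2 CPM scale, Cbln1 was at 4.83 against 7.21 to 7.57, Gabra6 at -3.25 against 5.74 to 6.76, Cbln3 at -0.46 against 6.88 to 7.9, and Zic1 at 5.86 against 7.16 to 7.52. The Gabra6 value stands for 0 counts and is set by the prior count. WT, with 3 libraries, was not checked.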

How the results depend on the processing

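All 112 member fold changes under the 14 alternatives were positive, and 26 passed the threshold. No member passed under RLE or upper quartile scaling, without a filter, or without any single library other than D50A 1. Over all genes, 0 were called higher and 0 lower. DESeq2 called 31 higher and 6 lower, limma-voom 315 and 202. With single libraries left out the range was 0 to 26 higher and 0 to 0 lower, the 26 without D50A 1; without D50A 1 and D50A 3 together the counts were 558 and 507. For members, calls were 6 by DESeq2, 6 by limma-voom, 0 to 6 with 1 library left out and 8 without both. Gabra6 ranged from 8.38 to 10.26 in log2 fold change. Of 132 list medians, 3 moved beyond the spread of the D50A libraries, among them Bergmann glia, from 0.95 to 0.41 without D50A 3. That spread is the SD of the list mean over all 5 D50A libraries, D50A 1 included. It is wide for the members, so the count is no measure of stability. The brainstem median, 1.71 with all libraries, was counted as moved without WT 3, at 2.92. Without WT 1 it was 1.08 and was not counted as moved. Depth limits Gabra6 in WT and D50A 1, where 3 counts equal 0.117 to 0.178 CPM. No paired analysis was possible because the labels give the groups no shared replicate numbers.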

Other observations

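Olfactory bulb and brainstem markers also differed between libraries, in orders unlike that of the granule cell genes. Olfactory bulb genes (7 tested) lay 0.98 log2 CPM above the WT mean in D50A 1 and -0.11 to 0.48 in D50A 2 to 5. All 7 lay above every WT library in D50A 1, where 31.8% of all genes did. Cdhr1, a photoreceptor-type cadherin gene of mitral cells, reached 33.3 CPM in D50A 1, and the other 7 libraries held 7.59 to 18.8 CPM. Calb2, a calcium-binding protein gene on the granule cell and olfactory lists, was at 79.7 CPM in D50A 1, 91.6 to 232 CPM in D50A 2 to 5 and 51.3 to 56.8 CPM in WT.

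Of 10 brainstem genes, 3 were tested, and 7 Hox genes fell below the filter. Slc6a5, the glycine transporter gene of hindbrain inhibitory neurons, was at 4.52, 17, 1.3, 5.03 and 7.91 CPM in D50A 1 to 5 and at 0.577, 1.32 and 0.653 CPM in WT. D50A 1, with no Gabra6 read, thus held more Slc6a5 than any WT library. Tph2, the serotonin synthesis enzyme gene of the raphe, ranged from 6.94 to 9.77 CPM over the D50A libraries, beside 1.06, 6.48 and 5.46 CPM in WT 1 to 3. Neither passed by edgeR (adjusted p = 0.837 for each). DESeq2 and limma-voom each called 1 brainstem gene higher, and limma-voom 1 olfactory bulb gene. Over all genes, DESeq2 called 0.168% higher and limma-voom 1.87%.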
